A study of Rattus norvegicus with 8 samples.

Results

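The 8 RNA-seq libraries of rat medial prefrontal cortex divide by replicate number into sides of 4. Side A holds the libraries numbered 1 and 2 in both phenotypes (HI1, HI2, LI1 and LI2), and side B holds those numbered 3 and 4 (HI3, HI4, LI3 and LI4). All 8 of the 8 libraries of the series enter the comparison, and each side has 2 HI and 2 LI libraries. The division follows the replicate number and was chosen by the ribosomal RNA shares of these same libraries, so the difference in that share is a description and not a finding, and so is every side difference given here. Nothing in the labels says that the replicate number marks a batch, a day or a litter.

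All animals were male Sprague-Dawley rats without a drug treatment or a genetic change named in the labels, and their age is not given there. HI (high motor impulsivity) and LI (low motor impulsivity) are the ends of an outbred population, taken from the upper and the lower quartile of premature responses in a reaction time task that asks the rat to withhold a response until a cue. RNA came from homogenate of the medial prefrontal cortex, a region that takes part in response control, so every cell type of the dissected block contributed. The labels do not state that each library is a separate animal, so p-values measure the spread between these libraries, which may be technical. In homogenate, fewer cells of a type and less RNA per cell cannot be told apart.

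Most RNA in a cell is ribosomal RNA, which RNA polymerase I transcribes as a 45S precursor that is cut into the mature 18S, 5.8S and 28S species. Library protocols either select polyadenylated RNA or deplete ribosomal RNA before sequencing, and the sources used here leave unsaid which of these was used. The share of reads on ribosomal RNA that is left varies from one preparation to the next. Ribosomal protein genes are transcribed separately, by RNA polymerase II, and their mRNAs are short and highly abundant.

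Depth ran from 7354416 to 9476656 rounded counts a library, and 13171 to 13478 of the 17168 listed genes had a count. Without the ribosomal RNA rows the totals lay between 5479518, in HI2, and 9065545, in HI3. No 2 libraries agreed within sampling noise (chi-square per gene between 8.07 and 56.0 over the pairs). On the first principal component, which held 51.2% of the variance of log2 CPM (a count relative to the TMM-scaled library total) without ribosomal RNA, HI4 at 51.0 and LI3 at 34.7 stood apart. The other side B libraries, HI3 at 0.330 and LI4 at 1.95, lay nearer to side A, which ran from -26.0 in LI2 to -13.2 in LI1. HI4 and LI3 were also the pair whose deviations from their group means ran most alike (correlation 0.78 across genes). Values of called genes and of lists that leaving out this pair, HI4 and LI3, moved by over 1.5 times are therefore also given without it.

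The rows Rn45s (the 45S precursor) and Rn28s (28S) together took 6.12% of counts in HI1, 25.5% in HI2, 5.44% in LI1 and 6.42% in LI2. On side B they took 3.96% in HI3, 0.406% in HI4, 0.418% in LI3 and 1.37% in LI4. The means were 10.9% ± 9.76 (SD, n = 4) for side A and 1.54% ± 1.68 (SD, n = 4) for side B. The sides did not overlap, but HI3 lay much closer to LI1 than to HI4, and HI2 carried most of the spread of side A. Wilson 95% intervals were at most 0.0315 percentage points to either side and cover counting error only, since reads are not independent molecules. In HI2, Rn45s held 20.03% and Rn28s 5.46% of counts, whereas in HI1, LI1 and LI2 Rn28s held only 0.0537%, 0.0647% and 0.0625%. On side B Rn28s held 0.0409% in HI3, 0.00647% in HI4, 0.0672% in LI3 and 0.272% in LI4. The libraries with the lowest ribosomal RNA shares, HI4 and LI3, were those at the far end of the first principal component. Whether the share has a part in the gene differences below was not tested.

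**Figure D1:**
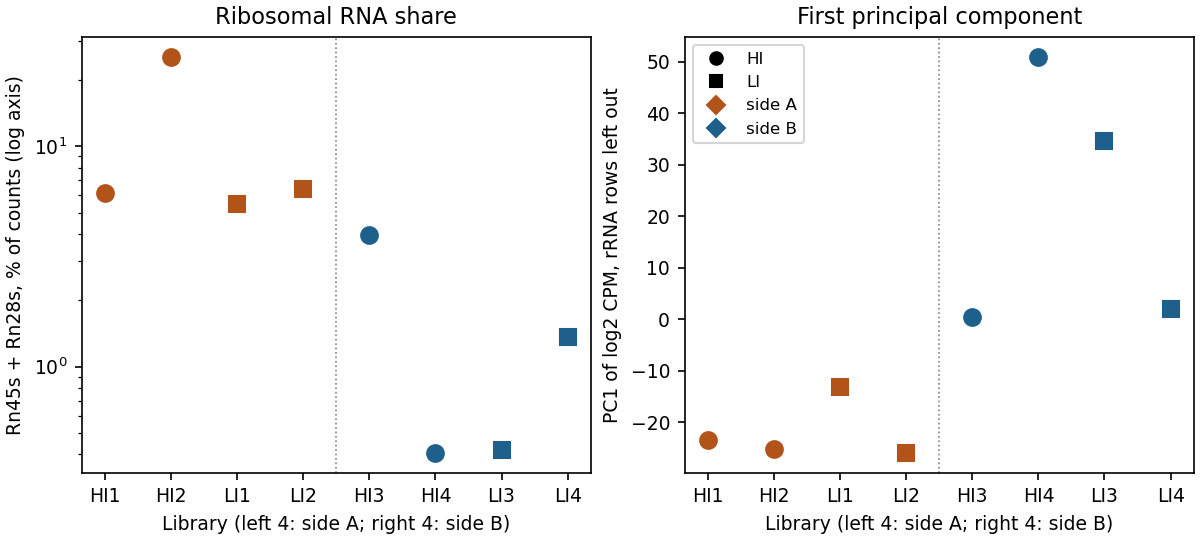
Left, the share of counts on Rn45s and Rn28s in each library, in percent on a log axis. Right, the position of each library on the first principal component of log2 CPM without those rows. Circles are HI and squares LI libraries, orange marks side A and blue side B. HI4 (0.406%) and LI3 (0.418%) have the lowest shares and the highest positions (51.0 and 34.7).

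Genes were compared between the sides with edgeR's quasi-likelihood model with HI or LI as a term, the ribosomal RNA rows left out. Differences are log2 CPM of side A minus side B, ± standard error. A gene is called when its Benjamini-Hochberg adjusted p lies below 0.1, and the call serves here to sort genes and not as evidence for the division. Of 11696 genes tested, 2800 were called (23.9%). Of these, 1280 were higher in side A (10.9% of genes tested) and 1520 were lower (13%). In 2546 genes (21.8%) the 4 values of side A did not overlap the 4 of side B, in 1270 with side A above and in 1276 with it below. The differences were small for most genes. The median absolute difference over all tested genes was 0.26 and the median standard error 0.15. Among called genes the median was 0.54 for those higher in side A and -0.53 for those lower, and 99 and 133 of them passed 1 on the log2 scale.

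The number of calls depended on single libraries. Without HI4 and LI3 together, 1 of 11963 genes was called (0.00836%), while 2045 had an unadjusted p below 0.05. Leaving out 1 library at a time gave 0 calls without HI1, HI2, LI2 or LI3, where between 2583 and 3132 genes had an unadjusted p below 0.05. The smallest adjusted p of the edgeR test was 0.101 without HI1, 0.141 without HI2, 0.123 without LI2 and 0.151 without LI3. Without HI4 there were 1215 calls, and 2854 genes had an unadjusted p below 0.05. There were 2208 calls without LI1, 3425 without LI4 and 4375 without HI3. HI4 and LI3 were the 2 highest libraries in 1144 of the 1520 genes called lower in side A (75.3%), against 21.1% of all tested genes. They were the 2 lowest in 895 of the 1280 called higher (69.9%), against 20.96% of all. Calling a gene already favours side B libraries at the end in question, so part of either gap is fixed by the call. Over the genes called higher in side A, the median deviation from the gene mean was 0.21 in HI1, 0.30 in HI2, 0.26 in LI1 and 0.33 in LI2. It was -0.08 in HI3, -0.56 in HI4, -0.37 in LI3 and -0.09 in LI4. HI3 and LI4 thus lay between side A and the other side B libraries for these genes. Without HI4 and LI3 the median difference of the called genes was 0.37 for those higher and -0.33 for those lower.

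Of the genes singled out for size below, those with the largest differences towards side A were 3 rows named only by locus number. LOC257642, whose RefSeq name describes an rRNA promoter binding protein, had 400 CPM in HI1, 3740 in HI2, 437 in LI1 and 620 in LI2. On side B it had 293 in HI3, 37.4 in HI4, 20.6 in LI3 and 120 in LI4, a difference of 3.27 ± 0.82. The order of the libraries on this row was that of the ribosomal RNA share except that HI1 and LI1, and HI4 and LI3, changed places. LOC100364769 had 185 CPM in HI2 and 15.8 or less in every other library, and its difference of 4.48 ± 1.06 became 2.53 without HI2. LOC500035 had 687 CPM in HI2 and 73.8 or less elsewhere, and its difference of 2.86 ± 0.95 became 1.49 without HI2. Whether reads from ribosomal RNA reach these rows was not tested. With all 3 left out of the totals and the fit, 2802 genes were called.

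Among genes with an annotated product, Rps21, a protein of the small ribosomal subunit, had 102 CPM in HI1, 117 in HI2, 138 in LI1 and 130 in LI2. It had 53.6 in HI3, 30.1 in HI4, 42.9 in LI3 and 59.7 in LI4. Every side A library lay well above every side B library, HI3 and LI4 included, and the difference was 1.38 ± 0.17. Rps21 was the gene that was still called without HI4 and LI3, at 1.10 ± 0.10. Zbed5, a gene derived from a transposase, had 17.6, 31.0, 19.8 and 33.9 CPM in HI1, HI2, LI1 and LI2 and 10.5, 6.25, 5.91 and 7.52 in HI3, HI4, LI3 and LI4. Its difference was 1.75 ± 0.27, and 1.49 without HI4 and LI3. Ydjc, related to a family of sugar deacetylases, ran from 28.5 to 31.0 CPM on side A and had 16.5, 8.14, 8.39 and 15.4 in HI3, HI4, LI3 and LI4 (1.27 ± 0.23).

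Genes were picked for size among called genes whose sides did not overlap and whose mean was at least 5 CPM. The other genes of the 12 highest by that choice included beta globin (Hbb, 1.44 ± 0.33), the globin row LOC100134871 (2.04 ± 0.58, or 1.25 without the pair) and Tmem204, a membrane protein of vessels (1.27 ± 0.27). Globin copies are near identical, so the split of reads among them is uncertain. Lrrc10b, a leucine-rich repeat protein, had 16.6 CPM in LI2 against 5.81 or less in the others, and its difference of 1.56 ± 0.51 became 0.96 without LI2 and 1.02 without the pair. RGD1559909 (1.42 ± 0.36, or 0.86 without the pair) and RGD1560394 (1.25 ± 0.30, or 0.77 without the pair), which have no descriptive symbol in the tables, completed the set.

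By the same choice, the largest difference towards side B was that of Cer1, a secreted antagonist of Nodal and BMP signalling. It had 2.50 CPM in HI1, 4.22 in HI2, 2.23 in LI1 and 0.804 in LI2, against 5.46 in HI3, 43.0 in HI4, 21.9 in LI3 and 6.28 in LI4. The difference of -2.99 ± 0.66 was -1.37 without HI4 and LI3, since HI3 and LI4 lay only a little above HI2. Tmprss2, a membrane serine protease, was similar, with 2.28 to 6.52 CPM on side A and 7.62, 32.7, 43.4 and 8.53 in HI3, HI4, LI3 and LI4 (-2.52 ± 0.61, or -1.05 without the pair). Pigr, the receptor that carries polymeric immunoglobulins across epithelia (-2.23 ± 0.43, or -1.34 without the pair), and Bhlha15, a transcription factor of secretory cells (-2.22 ± 0.43, or -1.41 without the pair), were also highest in HI4 and LI3. Gpr15, a receptor of lymphocyte homing, had 32.6 CPM in HI4, and its difference of -2.23 ± 0.58 became -1.46 without that library and -1.23 without the pair.

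Nrg1, which encodes neuregulin, a ligand of ErbB receptors, had 27.2 CPM in HI1, 31.3 in HI2, 37.3 in LI1 and 24.8 in LI2. It had 61.1 in HI3, 193 in HI4, 115 in LI3 and 78.4 in LI4. All side B libraries lay above all side A libraries, and the difference was -1.88 ± 0.32, or -1.20 without HI4 and LI3. Cdk6, a kinase of the G1 phase (-2.09 ± 0.40), and the amino acid transporter Slc7a15 (-1.87 ± 0.28) were lower in side A as well. The remaining genes of the 12 lowest by that choice were LOC100362172 (-2.36 ± 0.51, or -1.30 without the pair), LOC502176 (-2.31 ± 0.38), RGD1563015 (-1.92 ± 0.33) and LOC292543 (-1.89 ± 0.24). In 23 of the 24 genes HI4 and LI3 were the 2 libraries farthest towards side B. The genes were picked for sides that do not overlap, so the 2 farthest libraries had to come from side B.

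**Figure D2:**
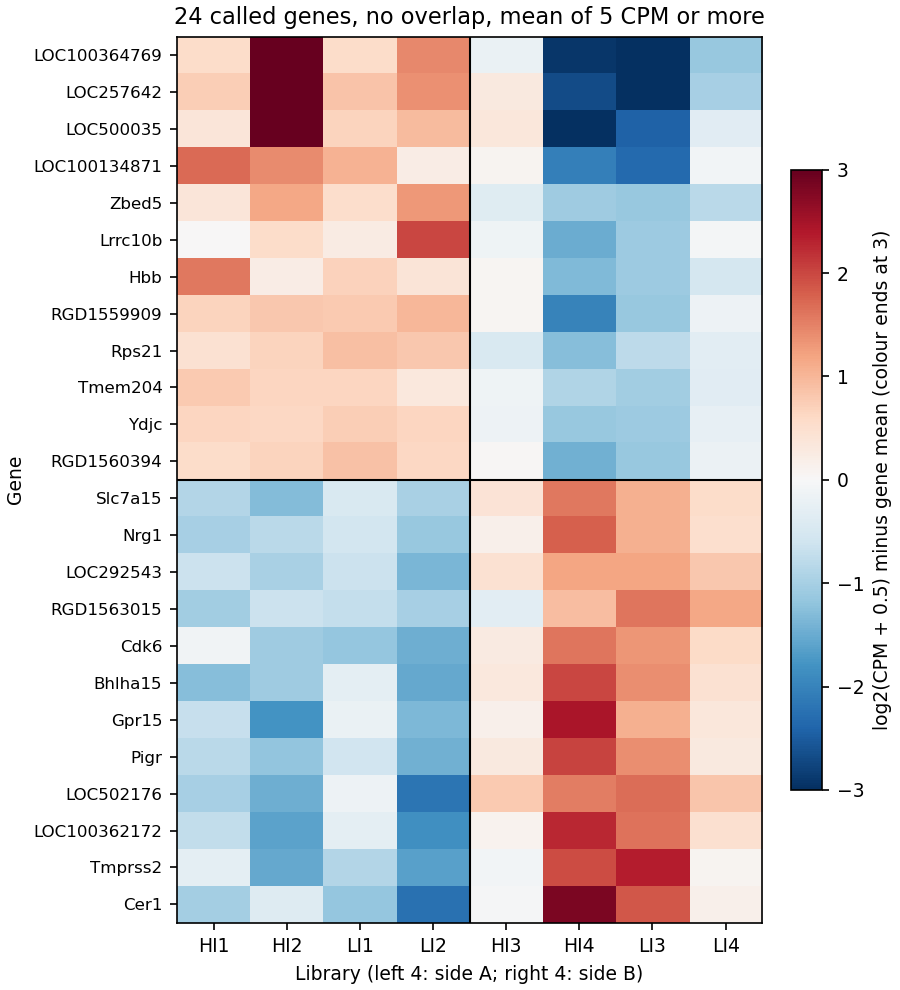
Heat map of the 24 genes with the largest differences among called genes with no overlap and a mean of at least 5 CPM (rows, 12 higher and 12 lower in side A) in the 8 libraries (columns, side A left of the line). Colour is log2(CPM + 0.5) minus the gene's mean, with red high and blue low. HI4 and LI3 hold the strongest colours of side B, while HI3 and LI4 are pale in most rows.

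Cytosolic ribosomal protein genes did not move as a block. Of 82 tested, 27 were called higher in side A (32.9%) and 8 lower (9.76%), beside 10.9% and 13% of all genes. In this family 54 had a positive and 28 a negative difference. The family's median was 0.18, against 0.01 for all tested genes, and 0.06 without HI4 and LI3. It was 0.10 once each library's trend on transcript length was removed. Short windows around the annotated start are shown for 4 genes of the family, Rps21 and Rpl22l1 called higher and Rpl23 and Rps24 called lower. Rps21 and Rpl23 are the outermost genes, but Rps14 (1.11) lay above Rpl22l1 (1.01), and Rpl35 (-0.50) and Rps6 (-0.48) lay below Rps24 (-0.47). The mRNAs of this family are known for the pyrimidine-rich tract at their 5′ end. Rpl22l1 and Rpl23 begin with G at the annotated start. Whether the 4 genes differ in such a tract was not tested. RefSeq promoter entries (build GRCr8) were matched by transcript accession, with a single annotated start for 62 of the 82 genes. The 25 bases before the start are in lower case and the 25 from the start on in capitals, 5′ to 3′ on the strand of the gene. Rps21 lies at chr3:187724013-187724062 and Rpl22l1 at chr2:113683171-113683220, both on the plus strand. Rpl23 lies at chr10:83272160-83272209 on the minus strand and Rps24 at chr16:96492-96541 on the plus strand.
Rps21: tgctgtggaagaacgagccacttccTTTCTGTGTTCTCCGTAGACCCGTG
Rpl22l1: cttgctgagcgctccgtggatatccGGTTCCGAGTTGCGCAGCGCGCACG
Rpl23: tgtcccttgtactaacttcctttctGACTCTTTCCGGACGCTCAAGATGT
Rps24: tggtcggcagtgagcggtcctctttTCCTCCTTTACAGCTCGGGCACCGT

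Rpl22l1, a paralog of the large-subunit protein Rpl22, had 21.1 CPM in HI1, 22.2 in HI2, 22.2 in LI1 and 25.7 in LI2. It had 12.4 in HI3, 10.8 in HI4, 9.90 in LI3 and 12.1 in LI4. HI4 and LI3 did not stand apart from HI3 and LI4 here, and the difference of 1.01 ± 0.14 was 0.89 without them. Rps14, another small-subunit protein, had 137, 154, 159 and 170 CPM on side A and 90.7, 39.4, 59.5 and 98.3 in HI3, HI4, LI3 and LI4 (1.11 ± 0.23, or 0.71 without the pair). Rplp0, of the ribosomal stalk (0.80 ± 0.17), and Rps28 (0.70 ± 0.15) were also called higher. At the other end Rpl23 had 121, 121, 153 and 130 CPM in HI1, HI2, LI1 and LI2, and 145, 226.4, 236 and 188 in HI3, HI4, LI3 and LI4. HI3 fell within the range of side A, so the sides overlapped, and the difference was -0.60 ± 0.14, or -0.33 without the pair. Rps24 had 109, 106, 137 and 114 CPM on side A and 134, 165, 180 and 164 on side B in the same order, again with HI3 inside the range of side A (-0.47 ± 0.11). Rpl35 (-0.50 ± 0.15), Rps6 (-0.48 ± 0.12, or -0.30 without the pair) and Rpl5 (-0.45 ± 0.12, or -0.28 without the pair) were called lower too. Processed pseudogenes of this family can share reads with the genes, and the assignment of such reads was not given in the sources used here.

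**Figure D3:**
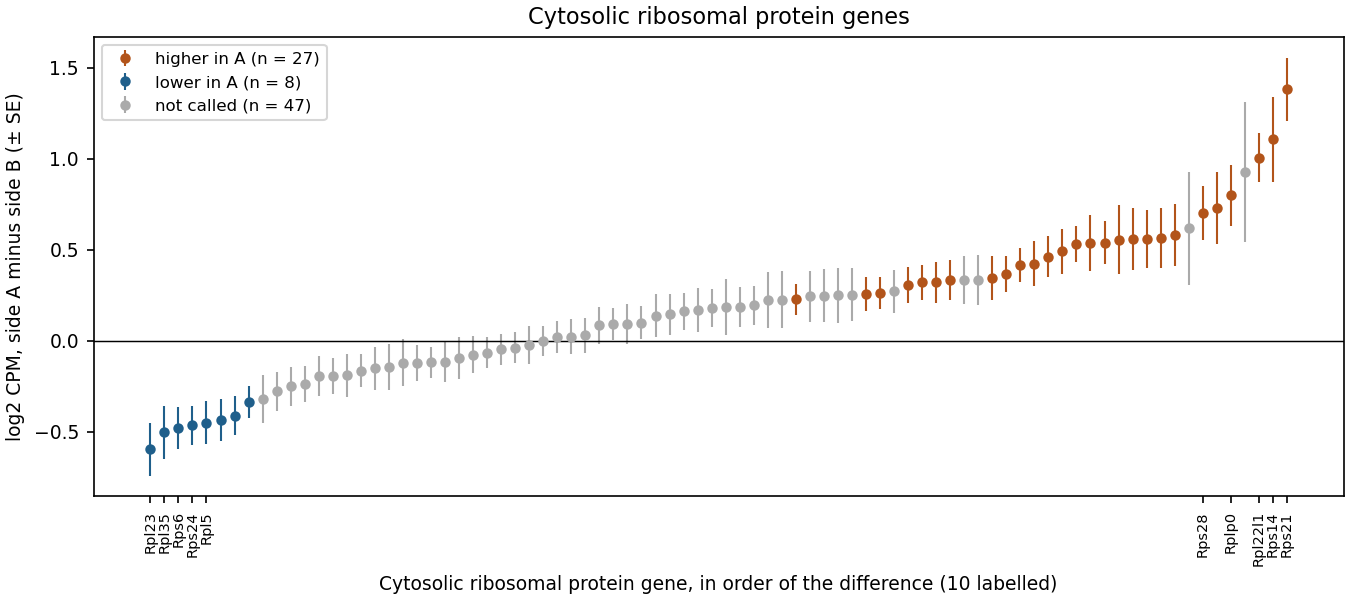
Difference in log2 CPM, side A minus side B, with its standard error for each of the 82 tested cytosolic ribosomal protein genes, in order of the difference, with 10 of them labelled. Orange points were called higher in side A (27), blue points lower (8) and grey points not called (47). The family runs from -0.60 (Rpl23) to 1.38 (Rps21).

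Other machineries built of many subunits had calls in both directions. Of 78 genes of the respiratory chain and ATP synthase, 27 were called higher in side A (34.6%) and 11 lower (14.1%). The shares of all genes were 10.9% and 13%. The list's median of 0.10 was 0.04 without the pair and became -0.01 once each library's trend on transcript length was removed. Ndufb10, a subunit of complex I, was called lower, with 94.1 to 111 CPM on side A and 137 to 193 on side B (-0.74 ± 0.13). Ndufa10l1, a copy of another complex I gene, was lower too (-0.72 ± 0.11). Of 69 mitochondrial ribosomal protein genes 9 were called higher (13%) and 10 lower (14.5%), near the 10.9% and 13% of all genes, with a median of 0.01 (0.0007 without the pair), and Mrpl42 (-0.76 ± 0.14) and Mrpl41 (-0.61 ± 0.14, or -0.38 without the pair) were among the lower. Of 40 proteasome subunits 7 were higher (17.5%) and 4 lower (10%), beside 10.9% and 13% of all genes. Their median was -0.04, or -0.06 without the pair. The catalytic subunit Psmb5 was called higher (0.52 ± 0.11), and Psmb4, another subunit of the core, had 73.1 to 97.6 CPM on side A against 31.3 to 52.7 on side B (1.04 ± 0.17).

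Genes of RNA processing and chromatin were mostly on the lower side. Of 28 SR and hnRNP splicing regulators 12 were called lower in side A (42.9%) and 0 higher, beside 13% and 10.9% of all genes. Their median was -0.31, or -0.12 without HI4 and LI3. Hnrnph2 had 100 to 114 CPM on side A and 150, 181, 169 and 135 in HI3, HI4, LI3 and LI4 (-0.58 ± 0.11). Of 32 genes of RNA turnover 13 were lower (40.6%) and 2 higher (6.25%), with a median of -0.25. Cnot4 (-0.92 ± 0.17, or -0.56 without the pair) and Cnot3 (-0.63 ± 0.11) of the CCR4-NOT deadenylase complex were among the lower. Of 45 histone methyltransferases and chromatin remodellers 12 were lower (26.7%) and 2 higher (4.44%), with a median of -0.19. Smarce1, a subunit of the BAF complex, was lower (-0.80 ± 0.16, or -0.51 without the pair), as was the methyltransferase family member Kmt2e (-0.88 ± 0.21), whose difference became -0.58 without HI4 and -0.43 without the pair. The medians of these 2 lists were -0.12 and -0.09 without HI4 and LI3.

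Small nuclear ribonucleoprotein and Lsm genes went both ways. Of 23 tested, 3 were called higher (13%) and 6 lower (26.1%), beside 10.9% and 13% of all genes. Snrpb, a core protein of the spliceosome, had 30.0 to 37.8 CPM on side A and 9.74 to 20.3 on side B (1.11 ± 0.21), whereas Lsm12 was lower (-0.61 ± 0.14, or -0.39 without the pair). Of 25 genes of rRNA processing and the nucleolus 2 were called higher (8%) and 7 lower (28%). Their median was -0.13, or -0.08 without the pair. Nop10, of the box H/ACA particles that guide pseudouridylation (-0.63 ± 0.12), and Nolc1, a nucleolar phosphoprotein (-0.51 ± 0.11), were lower in side A. Of 25 RNA polymerase subunits 5 were lower (20%) and 2 higher (8%), beside 13% and 10.9% of all genes. In this list 13 had a positive and 12 a negative difference, and the median was 0.01, or -0.03 without the pair. Polr3g, a subunit of RNA polymerase III, had 9.78 to 16.1 CPM on side A and 17.7, 51.9, 35.7 and 20.2 in HI3, HI4, LI3 and LI4 (-1.16 ± 0.32, or -0.46 without the pair).

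Of 62 heat shock and DnaJ chaperones 18 were called lower (29%) and 4 higher (6.45%), beside 13% and 10.9% of all genes. Their median was -0.21, or -0.12 without the pair. Hspa1b, an inducible Hsp70 with a near-identical neighbour, had 19.9 to 25.5 CPM on side A and 30.0, 68.9, 41.0 and 39.6 on side B in the same order as before (-0.98 ± 0.22, or -0.62 without the pair). Of 60 translation factors 11 were lower and 5 higher, with shares of 18.3% and 8.33% beside 13% and 10.9% of all genes, and Eif3a was at -0.79 ± 0.18, or -0.41 without the pair. Of 214 zinc finger genes 27 were lower (12.6%, beside 13% of all genes) and 5 higher (2.34%, beside 10.9%), and Zfp583 was lower (-1.13 ± 0.21).

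Among neuronal genes, 13 of 32 synaptic scaffold and active zone genes were called lower in side A (40.6%) and 0 higher. The shares of all genes were 13% and 10.9%. The median of the 32 genes was -0.22, and -0.18 without HI4 and LI3. Erc2, an active zone protein, had 69.6 to 89.0 CPM on side A and 130, 221, 136 and 90.1 in HI3, HI4, LI3 and LI4 (-0.78 ± 0.19, or -0.41 without the pair). LI4 lay barely above HI1. Nlgn3, a postsynaptic adhesion molecule, was lower (-0.43 ± 0.10). Of 56 Rab GTPases 18 were lower (32.1%) and 4 higher (7.14%). Rab3a, the Rab of synaptic vesicles, ran from 800 to 1065 CPM on side A and from 1242 to 1508 on side B (-0.66 ± 0.12). Of 48 protocadherins 10 were lower (20.8%) and 1 higher (2.08%), with a median of -0.33, and -0.14 without HI4 and LI3. Clustered protocadherins share exons, so their counts are uncertain. Of 43 glutamate and GABA receptor genes 9 were lower (20.9%) and 2 higher (4.65%). Their median was -0.09, or -0.04 without the pair, and Gabra5 was at -0.51 ± 0.11.

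Of 24 activity-induced genes 8 were called lower (33.3%) and 1 higher (4.17%), beside 13% and 10.9% of all genes (median -0.32). Egr1, an immediate early transcription factor, had 280 CPM in HI1, 203 in HI2, 204 in LI1 and 145 in LI2, and 487 in HI3, 669 in HI4, 395 in LI3 and 463 in LI4. All side B libraries lay above side A, HI3 and LI4 farther than LI3, and the difference was -1.28 ± 0.16, or -1.21 without HI4 and LI3. Fos, the best known gene of that class, was not called, with 22.1 to 51.5 CPM on side A and 24.3 to 50.1 on side B (-0.33 ± 0.24). The list's median without LI4 was -0.04. Its mean log2 deviation was 0.39 in HI1, 0.05 in HI2, 0.41 in HI3 and 0.08 in HI4. It was -0.35 in LI1, -0.54 in LI2, -0.32 in LI3 and 0.29 in LI4. On this measure the sides overlapped within HI but not within LI.

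Of 257 solute carriers 59 were called higher in side A (23%) and 11 lower (4.28%), beside 10.9% and 13% of all genes (median 0.21, and 0.14 without HI4 and LI3). Slc27a3, an acyl-CoA synthetase of that family, had 14.8 to 19.5 CPM on side A and 8.53 to 10.2 on side B (0.84 ± 0.14). Of 30 collagens and laminins 7 were higher (23.3%) and 0 lower, with a median of 0.64 that was 0.40 without HI1 and 0.35 without HI4 and LI3. Markers of meninges and fibroblasts, some of them collagens, were highest and lowest in much the same libraries. Their mean log2 deviation was 2.47 in HI1, 0.68 in HI2, -0.76 in HI4 and -1.37 in LI3, where that of collagens and laminins was 0.70, 0.41, -0.54 and -0.66, but in LI1 they were lowest, at -1.74 against -0.21. The part of these cells in the list was not tested. Col5a1 had 26.9, 21.99, 17.5 and 13.8 CPM on side A and 13.1, 9.74, 8.80 and 12.3 on side B (0.83 ± 0.19). Of 73 potassium channel genes 10 were higher (13.7%) and 7 lower (9.59%), near the shares of all genes. Their median of 0.15 was -0.00 without HI4 and LI3. Of 15 pore subunits of sodium and calcium channels 2 were higher (13.3%), near the 10.9% of all genes, and 0 were lower. Both were T-type calcium channels, Cacna1i (0.46 ± 0.17, or 0.17 without the pair) and Cacna1h (0.26 ± 0.10). Cacna1g, also T-type, was not called, at 0.32 within HI and 0.07 within LI.

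Histone genes, of which 14 of 34 were tested, had 1 call (7.14%, beside 23.9% of all genes). It was the variant H2afz, at 76.4 to 92.5 CPM on side A and 30.0 to 52.5 on side B (0.92 ± 0.16). None of the 424 microRNA genes in the tables passed the filter on low counts. Of 31 tested genes with only noncoding transcripts, 6 were called higher and 7 lower (41.9% together, beside 23.9% of all genes). The median of the 31 genes was 0.06. The brain cytoplasmic RNA Bc1, a short RNA of dendrites, was lower (-0.44 ± 0.14).

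**Figure D4:**
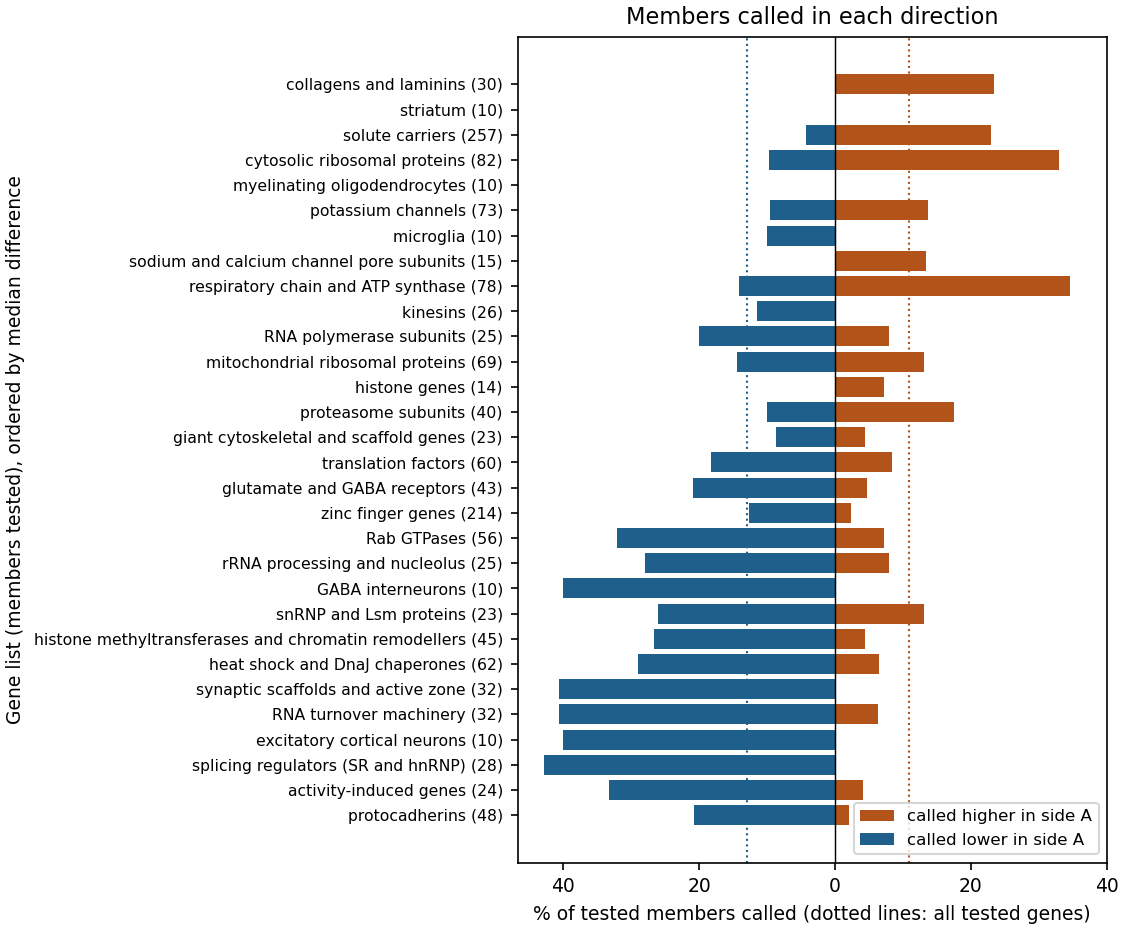
Share of the tested members of each gene list called higher (orange, right) and lower (blue, left) in side A, in percent, for lists with 10 or more tested members, ordered by median difference. Dotted lines mark the shares among all tested genes (10.9% higher and 13% lower). Splicing regulators, synaptic scaffolds and excitatory neuron markers have calls in the lower direction only, while collagens and laminins have calls in the higher direction only.

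The defining markers of excitatory cortical neurons were present in every library, with summed levels of 5361 to 7492 CPM on side A and 7277 to 8008 on side B. Of 10 such markers 4 were called lower in side A (40%) and 0 higher, beside 13% and 10.9% of all genes. The median of the 10 was -0.29, or -0.18 without the pair. Neurod6, a transcription factor of these neurons, was -0.81 ± 0.18, and Fezf2, which specifies deep-layer projection neurons, was -0.66 ± 0.14. The vesicular glutamate transporter Slc17a7 was not called, at 0.31 ± 0.16, and Camk2a was not called either, at -0.07 ± 0.11. Of 10 interneuron markers 4 were lower (40%) and 0 higher. The lower ones were Npy (-0.63 ± 0.13), Pvalb (-0.53 ± 0.20, or -0.35 without HI2), Sst (-0.49 ± 0.16, or -0.23 without the pair) and Lhx6 (-0.43 ± 0.14, or -0.23 without the pair). The GABA-synthesising enzymes Gad1 (-0.18 ± 0.16) and Gad2 (0.03 ± 0.12) were not called. Slc32a1 (0.36) and Vip (0.18) had positive differences and were not called either. The interneuron list had 3 positive and 7 negative differences, and its median was -0.14, or -0.06 without LI4.

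Glial markers went both ways. Of 9 astrocyte markers, 22.2% were called in each direction, beside 10.9% higher and 13% lower among all genes. Aldh1l1 (0.58 ± 0.12) and Gfap (0.45 ± 0.16, or 0.23 without the pair) were higher in side A. The water channel Aqp4 (-0.56 ± 0.16, or -0.27 without the pair) and the gap junction protein Gja1 (-0.40 ± 0.14, or -0.15 without the pair) were lower. None of 10 myelin markers was called, and 0.16, their median, became -0.39 without LI2 and 0.30 without the pair. That library had 3732 CPM of Mbp, myelin basic protein, where the other side A libraries had 966 to 1066 and side B 1103 to 1934. Of 10 microglial markers 1 was lower (10%), the chemokine receptor Cx3cr1 (-0.47 ± 0.15, or -0.28 without the pair). Of 7 markers of oligodendrocyte precursors 1 was higher (14.3%), Olig1 (0.62 ± 0.19, or 0.39 without the pair). Both shares lay near those of all genes. The precursor list had 4 positive and 3 negative differences, and its median of 0.12 was 0.06 without the pair and -0.07 without HI1.

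Markers of neighbouring tissue moved with single libraries. None of 10 striatal markers was called, but their summed level was 1026 CPM in LI2 and 413 to 467 in the other 7 libraries, and their median of 0.36 was -0.02 without LI2. None of 7 markers of meninges and fibroblasts was called, yet they summed to 1106 CPM in HI1 and to 41.8 to 282 in the others, and their median of 0.96 was 0.36 without HI1 and 0.51 without the pair. All 5 tested blood markers had positive differences, and 3 of them were called higher (60%, beside 10.9% of all genes). The blood markers summed to 212 to 633 CPM on side A and 185 to 319 on side B. The erythroid enzyme Alas2 (1.497 ± 0.45) became 0.96 without HI1. Of the choroid plexus list the defining Ttr had 15 counts in HI1 and at most 6 elsewhere, and Kl, Folr1 and Clic6 were at or near 0 in most libraries. The 2 tested members, Aqp1 (1.96 ± 0.63, 1.21 without HI1) and Kcne2 (1.36 ± 0.31), were called higher. Of 9 endothelial and pericyte markers 3 were higher (33.3%), among them Cldn5, a tight junction protein. It had 41.9 to 43.9 CPM on side A and 36.2, 12.1, 15.4 and 29.1 in HI3, HI4, LI3 and LI4 (0.89 ± 0.29, or 0.41 without the pair). The endothelial list had 5 positive and 4 negative differences, among the latter Abcc9 (-0.38 ± 0.19, not called), and its median of 0.06 was -0.17 without HI1, -0.05 without HI4 and -0.12 without the pair. The part of these cell types in the side differences was not tested.

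Transcript length was related to the difference in a graded way. Genes with transcripts under 500 bases had a median difference of 0.12 (140 genes), those from 500 and below 1000 bases 0.11 (927 genes) and those from 1000 and below 2000 bases 0.05 (4033 genes). The median was 0.02 from 2000 bases (3051 genes), -0.03 from 3000 (1672 genes), -0.07 from 4000 (1309 genes) and -0.12 from 6000 (387 genes). The class of 8000 bases and over broke the order, at -0.02 (177 genes), and was 0.05 without HI4. Without the pair the 8 medians were 0.08, 0.04, 0.03, 0.01, -0.01, -0.02, -0.05 and 0.05. All other classes kept their sign with any 1 library left out. Calls were made in both directions in every class. There were 30 higher and 19 lower under 500 bases (35% of the class called). From 6000 bases there were 18 higher and 60 lower (20.2%), where 23.9% of all genes were called. The gene with the smallest p in a class was Rps21 under 500 bases, Wbp2 (-0.80 ± 0.10) in the next class and Egr1 in the class from 1000 bases. From 2000 bases it was LOC292543, from 3000 Chpf2 (0.83 ± 0.13), from 4000 Atn1 (-0.68 ± 0.09) and from 8000 Hivep3 (-0.67 ± 0.13). Wbp2, a transcriptional coactivator with a short transcript, went against the trend of its class, at 197 to 203 CPM on side A and 323, 390, 364 and 311 in HI3, HI4, LI3 and LI4.

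The relation to length came mostly from HI4. The slope of log2 CPM deviation per doubling of length was 0.13 in HI4 and -0.08 in LI1, and between -0.03 and 0.01 in the other 6 libraries. LI3, which shared most of HI4's gene differences, had a slope of 0.01. Side A minus side B was -0.06 per doubling, and -0.02 without HI4 and LI3 or without HI4 alone. With the gene's mean level as a further term, and all libraries kept, it was -0.04. With each library's length trend removed, 3008 genes were called, 2625 of them among the 2800. Differences also ran with expression level, from a median of 0.20 in the 501 genes under 2 CPM to -0.13 in the 304 genes of 500 CPM and over.

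**Figure D5:**
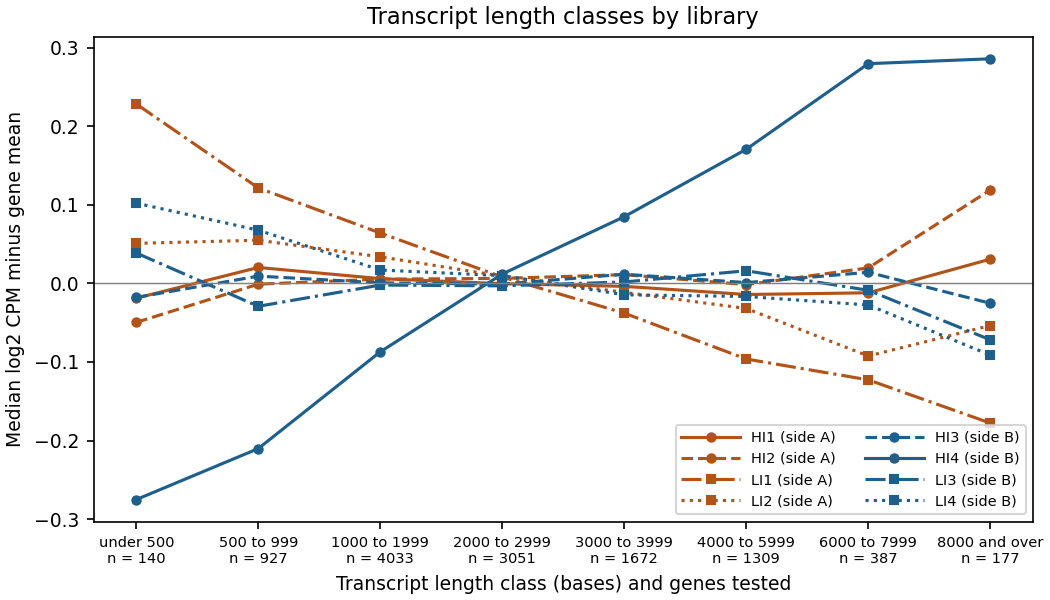
Median of log2 CPM minus the gene's mean in each library, for 8 classes of transcript length in bases with the number of genes tested. Orange lines are side A and blue lines side B, with circles for HI and squares for LI. HI4 climbs from -0.28 to 0.29, LI1 runs the opposite way from 0.23 to -0.18, and the other libraries stay within about 0.12 of 0.

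The 4 HI and the 4 LI libraries share no library, so the side difference could be read in each. Across the 11696 genes the difference within HI and that within LI had the same sign in 79.6% of genes (Pearson r = 0.68, Spearman rho = 0.72, across genes, which are not independent replicates). Without HI4 and LI3 the share was 64.4% (r = 0.28, rho = 0.36), and without HI3 and LI4 it was 83.0% (r = 0.79, rho = 0.80). Rps21 differed by 1.44 within HI and 1.40 within LI, Egr1 by -1.26 and -1.31, and Nrg1 by -1.89 and -1.64. For these genes the sides did not overlap, which by itself fixes the same sign within HI and within LI.

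Each side holds 2 HI and 2 LI libraries, so side and phenotype are balanced, although the spread that the test uses changes with the side term. With side as a term, edgeR's quasi-likelihood test called 0 of 11696 genes (0%), and 763 had an unadjusted p below 0.05, 524 higher and 239 lower in HI. Without the side term 0 were called, 481 had such a p and the smallest adjusted p was 1.00. DESeq2's Wald test on the same design called 60 genes (55 up and 5 down in HI), and limma-voom called 0. The smallest p belonged to Ptprt, a receptor tyrosine phosphatase, which had 175, 151, 158 and 170 CPM over the 4 HI and 116, 121, 104 and 101 over the 4 LI libraries, in numerical order. All HI values lay above all LI values on either side of the division, but the smallest adjusted p of the edgeR test was 0.506. Cacna1e, Arl5b, Ago2 and Grm5 followed. The interaction, which asks whether HI minus LI differed between the sides, called 0 genes (0%), with 144 at an unadjusted p below 0.05. DESeq2 and limma-voom also called 0, and with 2 libraries in each cell the median standard error of the interaction was 0.32.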

How the data were processed

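The authors deposited 1 table per library with, per the file headers, an expected count, a TPM, an FPKM and a transcript length for each gene. TPM and FPKM, which the authors normalized, entered no test. The submitters' processing notes list Bowtie2 2.1.0, with quantifier, genome build, annotation and use of strand not given in the sources used here. Between 10.8% and 11.4% of the deposited expected counts were not whole, and all were rounded. Rn45s and Rn28s were removed before totals. Genes were filtered with filterByExpr (minimum count 10, minimum total 15), scaled by TMM and fitted with edgeR 4.0.16 under R 4.3.3, with side and group as terms, over all tested genes and with an adjusted p threshold of 0.1, the alpha in the series' design text. Standard errors are the absolute log2 difference divided by the square root of F. Alternatives used limma 3.58.1, DESeq2 1.42.0, other filters and scalings, a length correction, a replicate block and left-out libraries. The procedure was also run on simulated counts with a fixed dispersion and planted side differences. These counts held no deviation shared by HI4 and LI3 alone, so that run cannot bear on how this pair affects the calls.

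Sides, members, gene lists and alternatives were chosen with earlier results of these data known. Named genes are the 12 largest called differences in each direction with no overlap and a mean of at least 5 CPM, the 2 smallest p per list, the smallest p per length class, the 5 smallest for HI against LI and for the interaction, and fixed controls. Other members named are list members given for their role, chosen after their values were seen. Malat1, a fixed control, had no matching row. Promoter sequences come from RefSeq (GRCr8). Some genes that this rule names are not reported here.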

Additional observations from a re-analysis of the deposited data

Results flagged for a closer look

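In 9 of 130 checks of the 4 libraries of a side, 1 library lay so far from the other 3 that its gap passed Dixon's limit of 0.829, where chance passes about 1 in 20. HI2 was such a library for the ribosomal RNA share (25.5%, next 6.42%) and for 3 genes, LOC257642 (3740 CPM, next 620), LOC500035 (687 CPM, next 73.8) and LOC100364769 (185 CPM, next 15.8). LI2 was apart for Lrrc10b (16.6 CPM, next 5.81). HI4 was apart for the mean log2 deviation of respiratory chain genes (-0.288, next -0.00325) and of proteasome subunits (-0.172, next -0.00132). LI1 was apart from the rest of side A for solute carriers (0.0162, next 0.113) and for splicing regulators (-0.0529, next -0.157).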

How the results depend on the processing

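The number of genes called between the sides, 2800, stayed between 2669 and 3008 under another scaling, other filters, ribosomal RNA kept, DESeq2, limma-voom, a length correction, no group term and 3 more rows left out, the last chosen after seeing the data. It was 4489 with limma-voom library quality weights, 1 without HI4 and LI3 (Rps21), and between 0 and 4375 with 1 library left out. The cause was not tested, beyond the fewer libraries in the last 2. In the fit with the replicate block 1 gene was called, Egr1. Libraries with the same number did not all deviate together (correlations 0.21, 0.54, -0.06 and 0.05). Whether the numbers pair the samples was not tested and is not stated in the labels. HI against LI called 0 genes in every setting except DESeq2's Wald test, with 60. Of 90 called named genes followed singly, 0 changed sign in any setting run for them and 89 lost the call without HI4 and LI3. For 7 genes that were not called the difference took both signs as 1 library at a time was left out, from -0.395 to 0.393 for Mbp, -0.0668 to 0.72 for Cldn11, -0.0204 to 0.807 for Mag, -0.49 to 0.0978 for Gcnt1, -0.523 to 0.0734 for Igfbp6, -0.575 to 0.177 for Thbs1 and -0.139 to 0.00145 for Camk2a, and Gapdh was -0.0484 without HI4 and LI3. Of 37 list medians, 0 changed sign under another scaling, a 1 CPM filter or ribosomal RNA kept, 4 without HI4 and LI3 and 4 with the length correction. Counts limit genes under about 2 CPM, of which 6.59% were called.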
